A study of Saccharomyces cerevisiae with 6 samples.

Results

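The 10 genes described here are the classical mating-type specific genes of budding yeast, followed here on 6 Affymetrix arrays, 3 of the wild-type strain FY4 and 3 of a BAS1 deletion mutant. They were taken by name from the array annotation: 4 are specific to alpha cells (MF(ALPHA)1, MF(ALPHA)2, STE3 and SAG1) and 6 to a cells (MFA1, MFA2, STE2, STE6, BAR1 and AGA2). Each of the 10 had 1 probe set, among 5449 genes tested. BAS1 encodes a Myb-family activator of purine and histidine synthesis genes. All cultures were in exponential growth in minimal medium with glucose, and the labels name no other allele or agent, no marker used for the deletion and no mating type. Nothing in the labels ties the replicates to separate cultures, and p-values reflect the scatter of these samples alone, which may be technical.

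Haploid yeast cells are of type a or type alpha, set by the allele at the MAT locus. In alpha cells the activator alpha1, together with Mcm1 and Ste12, turns on the alpha-specific genes, and the repressor alpha2 turns off the a-specific genes. In a cells neither protein is made, so the a-specific genes are on and the alpha-specific genes are off. Each type secretes its own pheromone and carries the receptor for that of the other: alpha-factor (from MF(ALPHA)1 and MF(ALPHA)2) is read by Ste2 on a cells, and a-factor (from MFA1 and MFA2) by Ste3 on alpha cells. FY4 is known as a haploid prototroph of type a.

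Values are log2 of the deposited intensities, and a difference is the deletion mean minus the wild-type mean, from limma with Benjamini-Hochberg adjustment over all tested genes and a threshold of 0.05. The deleted gene checked the labels: BAS1 averaged 11.09 ± 0.12 (SD, n = 3) across wild-type arrays and 4.83 ± 0.06 (SD, n = 3), under background, across deletion arrays. Background is the 95th percentile over probe sets whose gene is not in the S. cerevisiae table, 6.22 to 6.60 on the wild-type arrays and 6.09 to 6.12 on the deletion arrays. The strains also differed as wholes. Over all tested genes the median log2 difference was 0.11. The shift was larger over all 10928 probe sets, with array medians of 7.81 to 7.89 in wild type and 8.47 to 8.65 in the deletion strain. The 10 control probe sets for 18S and 25S rRNA averaged 13.46 to 13.56 on the wild-type arrays and 10.49 to 11.02 on the deletion arrays. Poly-A spike controls were low on 3 arrays (wild-type replicates 1 and 2, deletion replicate 1) and high on the other 3. The part of these shifts in the results below was not tested, and values under other scalings and within each spike level are given where they matter.

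In both strains the probe sets for the a1 and a2 sequences gave signal above background, and that for alpha1 did not. The probe set annotated to HMLALPHA1, whose sequence is that of the activator alpha1, read 4.73, 3.75 and 4.76 in wild type and 3.87, 3.76 and 4.07 in the deletion strain, in replicate order here and throughout. It lay under background on all 6 arrays. The probe set annotated to HMRA1, which has the sequence of the a1 repressor subunit, read 11.50, 11.74 and 11.11 in wild type and 11.20, 10.83 and 11.60 in the deletion strain. HMRA2 was likewise well above background, at 11.28 to 11.54 and at 11.39 to 11.69. The silent copies and the MAT locus share sequence, so an array cannot tell which copy was transcribed. MATALPHA2 and HMLALPHA2 had no probe set of their own among those analysed. Whether the HMRA2 probe set also reads alpha2 was not tested. HMRA1 and HMRA2 did not pass the test between strains (adjusted p = 0.405 and 0.528), and the groups overlapped for both.

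All 4 alpha-specific genes were higher in the deletion strain, by amounts that ran from 0.30 to at least 3.47 on the log2 scale. Their median difference was 1.27. Among all tested genes, 39.6% were called higher and 43.7% had every deletion value above every wild-type value, so the count of 4 in 4 is read beside a large share of called genes. Called rises of at least 2-fold made up 8.33% of tested genes, and 2 of the 4, MF(ALPHA)1 and STE3, were of that size. A bulk culture cannot tell a few cells with much of a transcript from many cells with little, and which of these held here was not tested.

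MF(ALPHA)1 (YPL187W) encodes the main precursor of alpha-factor. It read 5.51, 5.50 and 5.65 in wild type, under background on all 3 arrays, and 9.90, 9.71 and 10.12 in the deletion strain. The groups lay far apart, with no wild-type value above background and no deletion value below it. Its level was thus at least 11.0-fold higher in the deletion strain (adjusted p = 1.6e-06). The measured log2 difference was 4.35, and since its wild-type side lies under background, only the bound of 3.47 is read as a size. That bound holds for the deposited values. None was computed under other scalings, where the measured differences given are not read as sizes.

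STE3 (YKL178C), the receptor for a-factor, read 7.47, 7.35 and 7.43 in wild type and 9.45, 9.68 and 9.48 in the deletion strain. All 6 values were above background and the groups did not overlap. The log2 difference was 2.12 (SE 0.08, adjusted p = 6.1e-06), and 2.13% of tested genes differed by as much upward.

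SAG1 (YJR004C) encodes alpha-agglutinin, the wall protein by which alpha cells stick to a cells. It read 9.94, 9.97 and 10.15 in wild type, and 10.35, 10.53 and 10.47 in the deletion strain. The groups were close but separate, with a log2 difference of 0.43 (SE 0.08, adjusted p = 0.0037). MF(ALPHA)2 (YGL089C), the minor alpha-factor precursor gene, read 7.18, 7.26 and 7.37 in wild type and 7.61, 7.51 and 7.58 in the deletion strain. That is a log2 difference of 0.30 (SE 0.06, adjusted p = 0.0081) as deposited, and of -0.56 after quantile normalization. A rise as large as those of SAG1 and MF(ALPHA)2 was found in 23.9% and 33.2% of tested genes.

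The 2 alpha-factor genes therefore did not move alike. MF(ALPHA)1 differed by at least 3.47 log2, above the 95% interval of MF(ALPHA)2 (0.14 to 0.46), of SAG1 (0.25 to 0.62) and of STE3 (1.93 to 2.30). The intervals of SAG1 and MF(ALPHA)2 overlapped each other and not that of STE3.

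**Figure D1:**
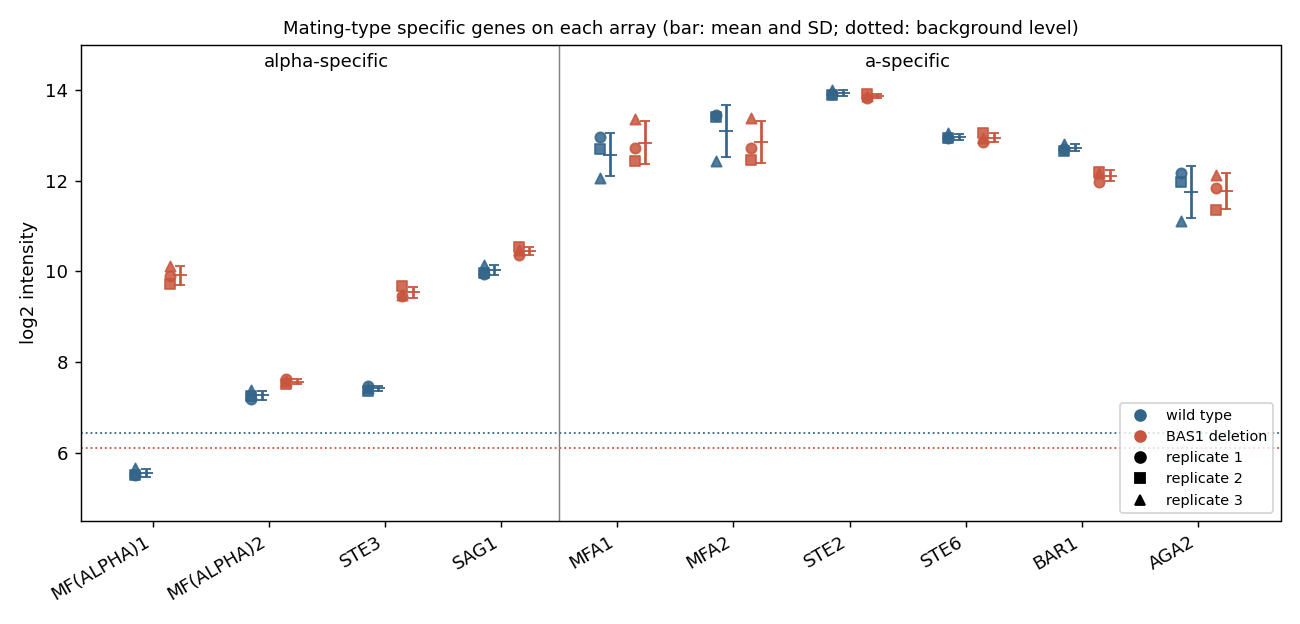
Log2 intensity of the 10 genes on each array, with wild-type arrays in blue and deletion arrays in red, symbols for replicates, and bars for the mean and SD of 3 arrays. Dotted lines mark the mean background level of each strain. MF(ALPHA)1 passes from under background to 9.71 and above, STE3 stands clear of its wild-type values, BAR1 is lower, and MFA1, MFA2 and AGA2 spread widely within both strains.

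MF(ALPHA)1 and STE3 were called higher under each scaling tried, and SAG1 and MF(ALPHA)2 were not. Centring each array on its median gave a measured difference of 4.20 for MF(ALPHA)1, 1.96 for STE3, 0.28 for SAG1 and 0.14 for MF(ALPHA)2, and called the first 3 as higher, where 27.2% of all genes were called higher and 33.1% lower. Quantile normalization gave 4.05, 1.42, 0.22 and -0.56. It called MF(ALPHA)1 and STE3 higher and MF(ALPHA)2 lower (adjusted p = 0.0029), and SAG1 missed the threshold (adjusted p = 0.058). Under it 24.9% of all genes were called higher and 35.5% lower. The measured difference was 4.40 for MF(ALPHA)1 and 2.04 for STE3 when the low-spike arrays were taken alone, and 4.26 and 2.14 on the high-spike arrays. Each of those sets holds 2 arrays of one strain against 1 of the other, with the single array assumed to vary like the others.

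**Figure D2:**
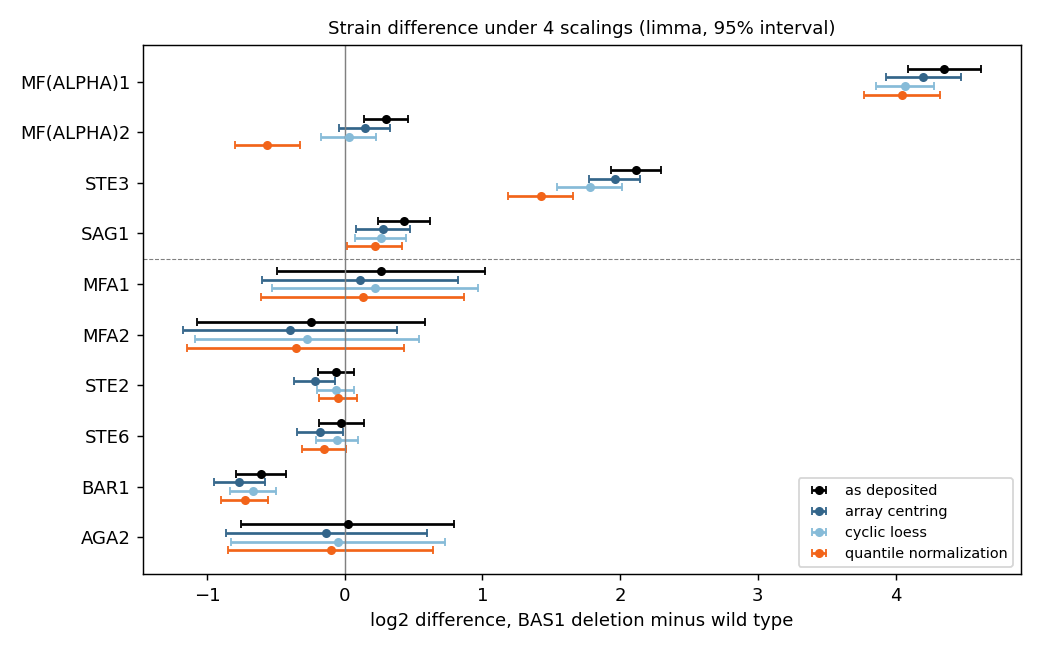
Log2 difference (deletion minus wild type, x axis) of each gene with limma's 95% interval, for the deposited values, array centring, cyclic loess and quantile normalization. The wild-type side of MF(ALPHA)1 is under background, so its points are measured values and not sizes. STE3 stays above 1 and BAR1 below 0 under all 4, while MF(ALPHA)2 passes from 0.30 to -0.56.

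Among the a-specific genes only BAR1 was called between the strains as deposited. STE2 and STE6 differed little, while MFA1, MFA2 and AGA2 varied too widely within strains to show whether they differed. Of the 6, 1 was called lower and 5 were not called, with a median log2 difference of -0.04. Among all tested genes 19.8% were called lower and 23.7% had every deletion value below every wild-type value. All 6 stood far above background on every array.

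BAR1 (YIL015W) encodes the secreted protease with which a cells degrade alpha-factor. It read 12.70, 12.66 and 12.81 in wild type and 11.98, 12.19 and 12.17 in the deletion strain, with no overlap. It was 1.53-fold lower (log2 difference -0.61, SE 0.08, adjusted p = 7.4e-04), a fall that 3.51% of tested genes equalled or passed. The value was -0.76 after array centring, -0.73 after quantile normalization, -0.70 on the low-spike arrays and -0.63 on the high-spike arrays.

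STE2 (YFL026W), the alpha-factor receptor, read 13.91, 13.88 and 14.01 in wild type and 13.82, 13.92 and 13.86 in the deletion strain, so the groups overlapped. The log2 difference was -0.06, with a 95% interval from -0.20 to 0.07 (adjusted p = 0.349), and -0.22 after array centring, which called it lower (adjusted p = 0.022). STE6 (YKL209C) encodes the ABC transporter that exports a-factor. It read 12.93, 12.93 and 13.05 in wild type and 12.85, 13.05 and 12.93 in the deletion strain. Its log2 difference was -0.02 with an interval from -0.19 to 0.14 (adjusted p = 0.776). For both genes the interval leaves out a fall as large as that of BAR1.

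MFA1 (YDR461W) and MFA2 (YNL145W) both encode a-factor precursors, and AGA2 (YGL032C) encodes the binding subunit of a-agglutinin. MFA1 read 12.97, 12.70 and 12.06 in wild type and 12.72, 12.43 and 13.37 in the deletion strain. MFA2 read 13.44, 13.40 and 12.43 against 12.71, 12.46 and 13.37. AGA2 read 12.16, 11.97 and 11.10 against 11.83, 11.35 and 12.13. In all 3 genes the arrays of the strains overlapped and wild-type replicate 3 and deletion replicate 2 were the lowest of their strain. The log2 difference of MFA1 was 0.26 (95% interval from -0.49 to 1.02), that of MFA2 -0.24 (from -1.07 to 0.59) and that of AGA2 0.02 (from -0.75 to 0.80). The interval of AGA2 holds a change as large as that of BAR1 in either direction, that of MFA1 holds such a rise and that of MFA2 such a fall.

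The a-specific genes thus fell into a set with ordinary scatter and a variable set within strains. The residual SD of the fit was 0.47 for MFA1, 0.52 for MFA2 and 0.49 for AGA2, and only 1.87%, 1.32% and 1.73% of tested genes had a larger one. For STE2, STE6 and BAR1 it was 0.06, 0.08 and 0.10, and 72.0%, 51.6% and 42.5% of tested genes had a larger one. MFA1, MFA2 and AGA2 ranked the arrays of each strain in the same order, an order found in 165 of the 5449 tested genes (3.03%), 53 of which departed from a strain mean by at least 0.5 log2 on some array. STE2, STE6 and BAR1 ran against it: each was highest on wild-type replicate 3 and on deletion replicate 2, by 0.05 to 0.10 above the strain mean, where MFA1, MFA2 and AGA2 lay 0.39 to 0.66 below theirs. Over all tested genes the departures on wild-type replicate 3 and deletion replicate 2 correlated at 0.75, so moving together on these arrays was not particular to the a-specific genes.

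HMRA1 and STE18, which encodes the G-protein gamma subunit of the pheromone pathway, were also lowest on wild-type replicate 3 and deletion replicate 2. They were picked out after their values were seen. The genes whose departures from the strain means lay closest to the mean of MFA1, MFA2 and AGA2 over the 6 arrays, a comparison also made after the pattern was seen, were YOL097W-A, RPL29, SBH2, PCC1 and MIM2. RPL29 encodes a ribosomal protein and SBH2 a subunit of a translocon at the endoplasmic reticulum. RPL29, for example, read 13.89, 13.84 and 13.02 in wild type and 12.85, 12.59 and 13.55 in the deletion strain, again lowest on the same 2 arrays. The high-spike array of wild type, replicate 3, was the lowest of its strain in MFA1, MFA2 and AGA2, and of the high-spike deletion arrays replicate 2 was the lowest and replicate 3 the highest. The part of spike level in this pattern was not tested.

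**Figure D3:**
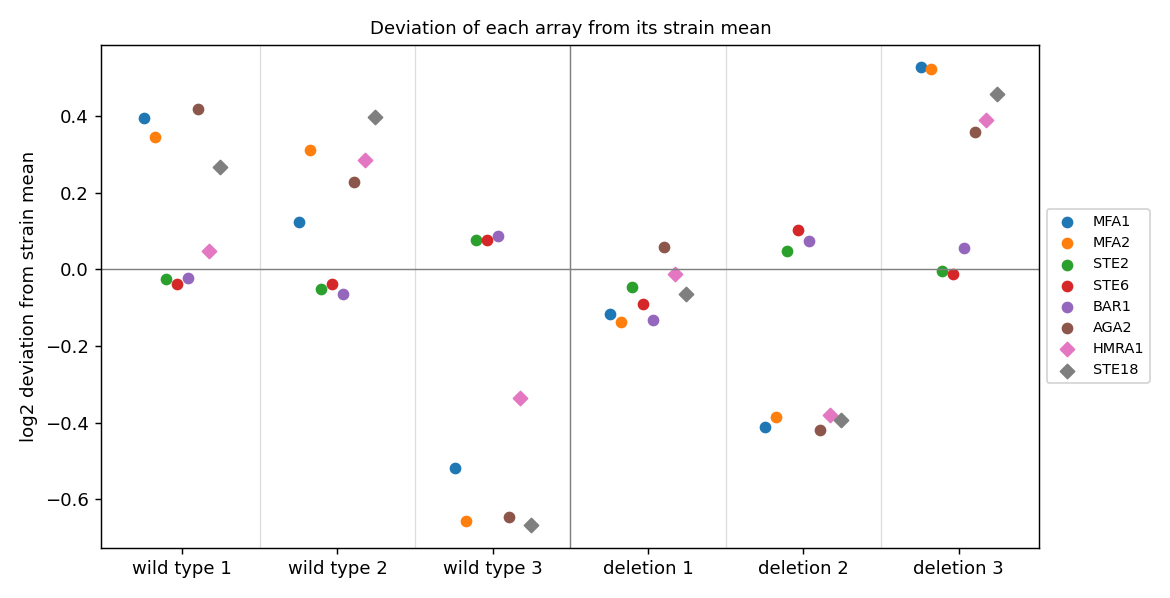
Departure of each array from the mean of its strain (log2, y axis) for the 6 a-specific genes (circles) and for HMRA1 and STE18 (diamonds), in 6 panels from wild-type replicate 1 to deletion replicate 3. On wild-type replicate 3 and deletion replicate 2 MFA1, MFA2, AGA2, HMRA1 and STE18 lie at -0.34 or lower, while STE2, STE6 and BAR1 lie at 0.05 or higher.

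By class median, the alpha-specific genes were higher than the a-specific genes on each deletion array. With every gene taken relative to its wild-type mean, the median of the alpha-specific genes minus that of the a-specific genes was -0.22, -0.10 and 0.32 on the wild-type arrays and 1.30, 1.66 and 1.13 on the deletion arrays. The difference between the class medians of the fitted values was 1.32, and 0.95 after quantile normalization. It is given as a description, with no test. For the fitted values, the median of the 4 alpha-specific genes is the midpoint between STE3 and SAG1. The a-specific median draws on MFA1, MFA2 and AGA2, which varied widely within strains. Single genes did not all follow the medians: on deletion replicate 3, MFA1 lay further above its wild-type mean than SAG1 or MF(ALPHA)2 did.

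Another pair of mating-type specific genes lay outside the 10. AFB1 (YLR040C), a blocker of a-factor known from alpha cells, read 9.79, 9.66 and 9.52 in wild type and 10.68, 10.72 and 10.72 in the deletion strain. It was 2.07-fold higher (log2 difference 1.05, SE 0.08, adjusted p = 7.0e-05), and between 0.80 and 0.89 log2 higher after array centring, cyclic loess or quantile normalization. ASG7 (YJL170C), an a-specific gene whose product inhibits pheromone signalling in new zygotes, read 9.63, 9.74 and 9.32 in wild type and 10.13, 10.02 and 10.17 in the deletion strain. It rose by 0.55 (SE 0.11, adjusted p = 0.0065), or by 0.25 to 0.39 under those scalings. So 1 a-specific gene outside the 10 moved the opposite way from BAR1.

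Genes that mature the pheromones moved in both directions, where 39.6% of all tested genes were called higher and 19.8% lower. Of 3 genes of alpha-factor maturation, 1 was called higher, 1 lower and 1 not called. KEX2, the protease that cuts the alpha-factor precursor, fell 1.49-fold (log2 difference -0.58, SE 0.04, adjusted p = 7.2e-05). Its values were 11.66 to 11.68 in wild type and 11.07 to 11.11 in the deletion strain. KEX1, a carboxypeptidase of the same route, was higher by 0.28 (adjusted p = 0.017), a call lost after array centring (0.13) or quantile normalization (0.16), and without wild-type replicate 1 or 2 or deletion replicate 3 (adjusted p = 0.0505 to 0.0515). Of 6 genes of a-factor maturation, 2 were higher, 1 was lower and 3 were not called. RAM1, the beta subunit of farnesyltransferase, rose by 0.38 (adjusted p = 0.0029). AXL1, a protease that cuts the a-factor precursor, was higher by 0.25 (adjusted p = 0.0077), and by 0.06 to 0.13 without a call under the other scalings. STE24, a CAAX protease, fell 1.30-fold (log2 difference -0.38, adjusted p = 7.1e-04).

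Of 8 measured genes of the mating loci, their silencing and their switching, 1 was higher, 1 was lower and 6 were not called. Array centring called 3 lower, quantile normalization 4, and the deposited values without wild-type replicate 2 called 2 lower. The quantile count and the count without wild-type replicate 2 include HMLALPHA1, which lay under background on all 6 arrays. It was not called as deposited (adjusted p = 0.154). As deposited, 39.6% of all tested genes were called higher and 19.8% lower. The lower share was 33.1% after array centring and 35.5% after quantile normalization. SIR1, which helps set up silencing at HML and HMR, rose by 0.64 (SE 0.06, adjusted p = 2.5e-04), from 9.45 to 9.50 in wild type to 10.04 to 10.23 in the deletion strain. SIR1 lies close to BAS1, on the same chromosome. SIR2, SIR3 and SIR4, the subunits of the silencing complex, differed by 0.02, -0.12 and -0.03 without passing the test as deposited. SIR3 was called lower after array centring (-0.27), and SIR2 under 2 of the alternatives. HO, the endonuclease of mating-type switching, fell 1.52-fold (log2 difference -0.60, adjusted p = 1.9e-04), from 11.62 to 11.66 in wild type to 10.99 to 11.13 in the deletion strain.

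Of 7 genes listed as shared regulators (MCM1, TUP1, CYC8, STE12, DIG1, DIG2 and KAR4), 4 were called lower and 3 were not called, with a median of -0.27. Not all of the 7 are known to act on both the a- and the alpha-specific genes. Among all tested genes 19.8% were called lower, or 33.1% after array centring, which also called 4 of the 7. Quantile normalization called 5 of the 7 lower, against 35.5% of all tested genes. Cyclic loess also called 5 lower, against 1601 of the 5449 tested genes. On the high-spike arrays alone 2 of the 7 were called lower, and on the low-spike arrays alone limma called 0, with 4 lower at an unadjusted p under 0.05. With the replicate number or the spike level as a block, 1 was called higher and 4 lower. TUP1 and CYC8, which encode a general co-repressor that alpha2 recruits, fell by 0.36 (adjusted p = 0.0012) and by 0.27 (adjusted p = 0.0042). The other falls were in STE12 and DIG1. MCM1, which encodes the factor that works with both alpha1 and alpha2, differed by 0.09, with a 95% interval from -0.08 to 0.26 (adjusted p = 0.295), and by -0.06 after array centring.

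Of 11 haploid-specific genes, which the a1-alpha2 repressor of diploid cells turns off, 3 were higher, 4 lower and 4 not called (2 higher and 5 lower after array centring). The shares over all tested genes were 39.6% higher and 19.8% lower, or 27.2% and 33.1% after array centring. Without wild-type replicate 1 or 3, or without deletion replicate 1 or 3, 2 were called lower. FAR1, the inhibitor that arrests the cycle in pheromone, fell by 0.67 (adjusted p = 1.2e-04), and FUS3, its mitogen-activated kinase, rose by 0.35 (adjusted p = 0.0013). RME1, a repressor of meiosis, rose by 0.33 (adjusted p = 0.0021). Every array read all 11 above background. Of the genes expected in a/alpha diploids, IME4 was above background on 1 array of each strain, and IME1 differed by 0.09 without passing the test. IME2 was higher by 0.38 (adjusted p = 0.017) as deposited and lower by 0.42 after quantile normalization, and it was not called without deletion replicate 2 or 3 (adjusted p = 0.0570 and 0.0578).

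Downstream of the receptors, 4 of 5 genes of the kinase module were higher and 1 was lower, against 39.6% of all tested genes called higher. After array centring 3 were higher and 1 was lower, against 27.2% called higher. With any 1 array left out, 3 were called higher. Quantile normalization, where 24.9% of all tested genes were called higher, called 2, as did cyclic loess. STE11 and STE50, the kinase and its adaptor, both rose by 0.60 (adjusted p = 2.0e-04 and 2.1e-04), and KSS1, a further mitogen-activated kinase, fell by 0.29 (adjusted p = 0.0053). Among 9 pheromone-induced genes, 2 rose and 4 fell, where 39.6% of all tested genes were called higher and 19.8% lower. FIG1, whose wild-type mean lay under background with 2 of 3 arrays above it, rose by at least 2.20 log2 and FUS2 by 1.27, while SST2 fell by 0.66 and KAR3 by 0.55. Without wild-type replicate 1 or 3, 2 of the 4 falls were called. AGA1, the anchor subunit to which Aga2 binds, differed by -0.06 (95% interval from -0.28 to 0.15).

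**Figure D4:**
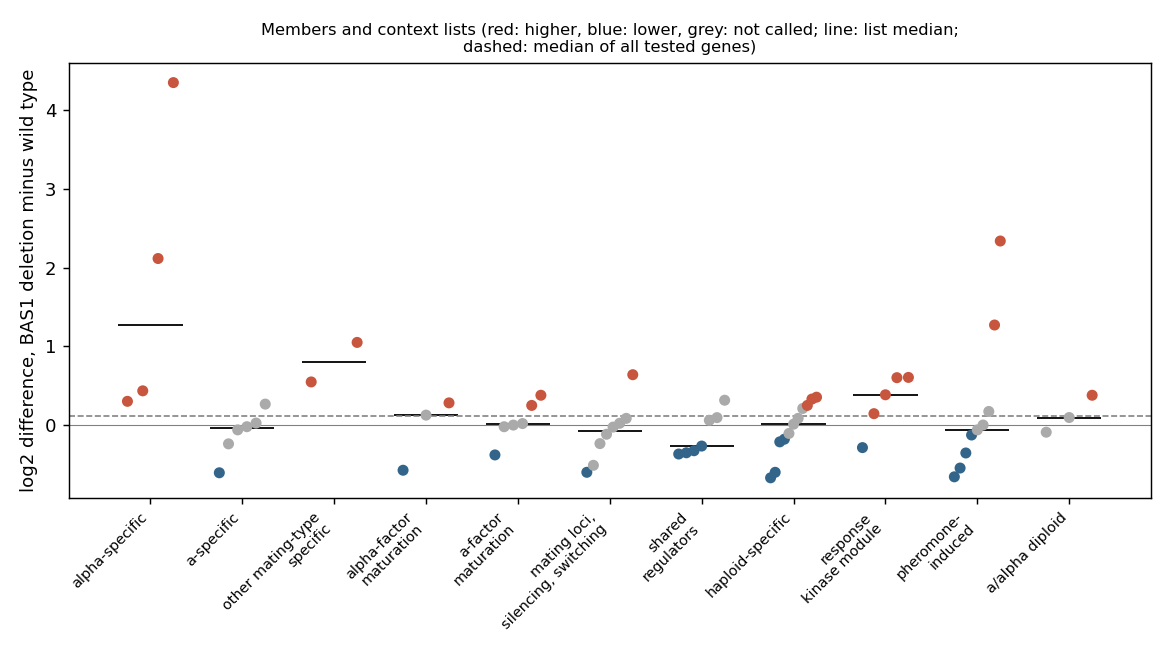
Log2 difference (deletion minus wild type, y axis) of every measured gene in the 10 and in the surrounding lists, red where called higher, blue where called lower and grey where not called. Short lines are list medians and the dashed line is the median of all tested genes, 0.11. Measured values of MF(ALPHA)1 and FIG1, whose wild-type means are under background, and of STE3 stand at 2.12 or higher, and BAR1 is the only called gene among the 6 a-specific ones.

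Over the 6 arrays, the genes whose profiles relative to wild type lay closest to that of MF(ALPHA)1 by Euclidean distance were AGP1, YFL012W and MOH1, at 0.43, 0.51 and 0.53. AGP1 encodes an amino acid permease and differed by 4.40 log2. These distances use measured values, with MF(ALPHA)1 under background in wild type. For STE3 they were PCL5, a cyclin gene, at 0.06, then ECL1 and FRM2. For BAR1 they were EXG2, a glucanase gene, at 0.08, then SEC63 and SGO1. None of these 9 is among the mating genes listed here.

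The 10 genes lie on 8 chromosomes. Of the 20 tested genes next to them, 12 were called higher, 3 lower and 5 not called, where 39.6% and 19.8% of all tested genes were called higher and lower. Beside MF(ALPHA)1, POS5 rose by 0.61 (adjusted p = 3.0e-04) and UIP4 by 1.11 (adjusted p = 0.0014), both less than MF(ALPHA)1 itself. Beside STE3, COY1 differed by -0.09 without passing the test and LST4 rose by 0.34. Beside BAR1, YIL014C-A rose by 0.92 (adjusted p = 0.0016) and SNL1 was not called, so neither neighbour shared its fall.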

How the data were processed

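Biotin-labelled cRNA made from total RNA of 6 samples was read on Affymetrix arrays, per the labels' protocols. The authors deposited linear intensities, 1 per probe set and array. Per the submitters' processing notes R 2.8.0, affy and RMA were used. In its usual form RMA summarises probes after background correction and between-array normalization, and it gives no detection calls. The deposited values still differed in array median over all probe sets, 7.81 to 7.89 in wild type and 8.47 to 8.65 in the deletion strain. They are thus not on 1 common distribution, and how they were normalized across strains was not tested. Low values are compressed, so changes of dim genes such as MF(ALPHA)1 can be understated.

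Here log2 was taken of the deposited intensities. Of 10928 probe sets, 5498 had 1 gene of the RefSeq table (assembly R64), and the brightest probe set stood for each of 5449 genes. The strains were compared by limma 3.58.1 (R 4.3.3; lmFit and eBayes with group as the only term). The background level of an array was the higher of its own 95th percentile and that of the means over arrays, over 1746 probe sets outside the table. For a group under background the fold is a bound, the other group's mean against the background level, or the measured value on arrays where it was higher. The fit was tested on data with known changes before use.

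The members, lists and alternatives were chosen with earlier results of these data known. Named genes were all 10 members, up to 4 genes per surrounding list (the lowest adjusted p in each direction) and the nearest profiles. Exceptions added after their values were seen were the remaining SIR genes, STE12, DIG1, MCM1, AGA1, STE18, IME1, IME4, the neighbours and the genes near the array pattern. AFB1 had been listed as a-specific and is described here by its known alpha-cell role. MATALPHA1, MATALPHA2 and HMLALPHA2 were not analysed here. The array annotation names no build, so no coordinates are given. The number of arrays limits the precision.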

Additional observations from a re-analysis of the deposited data

How the results depend on the processing

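The alternatives were array centring, quantile normalization, cyclic loess, all probe sets, the mean of probe sets, a filter on dim genes, array weights, a variance trend, spike level, a stricter threshold, the replicate number and leaving out each array. MF(ALPHA)1 (4.05 to 4.45 as measured), STE3 (1.42 to 2.16) and BAR1 (-0.76 to -0.54) kept direction and call under all 19. The alpha-specific genes called higher were 2 after quantile normalization, with 1 called lower (MF(ALPHA)2, -0.56). They were 3 after array centring, after cyclic loess and on the high-spike arrays, where MF(ALPHA)2 was at 0.14, 0.028 and 0.17 (adjusted p = 0.144, 0.789 and 0.162). The a-specific genes called lower were 2 after array centring (STE2 added) and 2 within the low-spike arrays (MFA2 added, -0.71, adjusted p = 0.017). The class difference was 0.95 after quantile normalization and 1.03 within the high-spike arrays. Genes not called as deposited turned sign: AGA2 was -0.13 after array centring, -0.10 after quantile normalization, -0.049 after cyclic loess, -0.071 with array weights and -0.24 within the low-spike arrays, MFA1 -0.11 there, and MFA2 0.48 within the high-spike arrays. With 1 array left out, AGA2 ran from -0.30 (without wild-type replicate 3) to 0.23 and STE6 from -0.075 to 0.022. Each spike set holds 2 arrays against 1. The cause of these changes was not tested.

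With the replicate number as a block, all 10 genes kept direction and call, with MF(ALPHA)1 at 4.35 and the class difference at 1.32, and 2130 genes were called higher and 1010 lower against 2160 and 1081. Pairing by number was not shown: departures from the strain means correlated at 0.44, -0.51 and -0.44 between same-numbered arrays. Wild-type replicate 3 correlated best with deletion replicate 2 (0.75). A pattern that wide could hide a pairing, so these values cannot exclude one.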
